A study of Mus musculus with 4 samples.

Results

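TGF-beta is a secreted cytokine that restrains and shapes lymphocytes, and its core signalling genes were measured here in activated lung ILC2s, group 2 innate lymphoid cells. The 9 genes are the ligand Tgfb1, the receptors Tgfbr1 and Tgfbr2, the signal carriers Smad2, Smad3 and Smad4, the inhibitor Smad7 and the repressors Ski and Skil. They were taken by gene symbol from the deposited tables, where each has 1 row among 22558 genes, and all 9 passed the filter that left 11711 genes for the test, with at least 309 counts in every library. RNA sequencing libraries came from 2 samples of wildtype C57BL/6 mice (WT) and 2 of ICAM-1 KO mice, which by label lack the adhesion molecule ICAM-1 (strain B6.129S4-Icam1 tm1Jcgr/J in the methods of the study). The latter are called KO-labelled below. All mice were 6 weeks old and had received 3 intranasal doses of 0.5 µg rm-IL33, the recombinant alarmin that activates ILC2s, with lungs taken on day 4. Each library was a pool of 4 mice, so the error between libraries is that between pools and not between animals, and there was no unchallenged group. The sources used here do not say whether the pools were sorted in separate experiments, so p-values measure only the spread between these libraries. The knockout is present in every cell of the mouse and not in ILC2s alone.

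As background, TGF-beta is made as a latent precursor and must be released before it can bind. The active ligand is caught by the type II receptor, which phosphorylates the type I receptor, and the latter phosphorylates the receptor-activated SMADs. These enter the nucleus with the common SMAD and act on target genes, among which are Smad7 and Skil, so that the pathway induces its own brakes. In lymphocytes TGF-beta is best known for promoting tissue residence and regulatory T cells, and it also acts on the development and migration of ILC2s.

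The targeted gene, Icam1, was not lower with the KO label. It had a normalized count of 85.2 and 83.3 in WT and of 97.6 and 110.0 in the KO-labelled libraries (log2 fold change 0.33, and an adjusted p of 0.0745 by the quasi-likelihood test of edgeR). Counts per gene do not show whether a transcript is whole or disrupted, so this value does not check the genotype, and every direction below rests on the labels. A normalized count is the authors' value, a gene's count plus 1 scaled so that all libraries share an upper quartile, and the libraries held 24796148 to 28782471 counts. The 11 ILC2 markers, among them the defining genes Gata3, Il1rl1 and Rora, were all detected, 2 of them higher (Klrg1 and Ptprc) and 2 lower (Il2ra and Arg1), with a summed normalized count of 6536 and 6808 in WT and of 6088 and 6174 in the KO-labelled libraries. Markers of other cell types were detected as well, and their sums were higher with the KO label, apart from fibroblasts, whose sums overlapped. Each list is given with its 2 most abundant markers. For endothelium, led by Pecam1 and Ramp2, 10 of 10 markers were higher with an adjusted p under 0.05 and their sum went from 142 and 152 to 365 and 385. Over all genes tested, 8.8% were called higher at that threshold. For macrophages and monocytes, led by Lyz2 and Csf1r, 6 of 9 tested markers were higher and the sum went from 252 and 268 to 533 and 791. For T cells and regulatory T cells, led by Ctla4 and Trac, 5 of 9 were higher and the sum went from 598 and 796 to 1056 and 1249. Ctla4 was not called (log2 fold change 0.33, adjusted p = 0.164 in edgeR), nor were Cd3e and Cd8a. Cd3g was not called and went the other way, from 114 and 127 to 81.1 and 107. For B cells, led by Ms4a1 and Cd79b, 4 of 6 were higher and the sum went from 166 and 151 to 313 and 256. For lung epithelium, led by Scgb1a1 and Sftpc, 3 of 7 tested markers were higher, with sums of 417 and 189 in WT and of 523 and 1324 with the KO label. Scgb1a1 was not called, at 338 and 142 in WT against 123 and 510.3. For platelets, led by Itga2b and Ppbp, 2 of 3 tested markers were higher in edgeR and 0 in limma. The sums were 14.0 and 14.4 against 22.0 and 25.1. Itga2b was not called (log2 fold change 0.02, adjusted p = 0.968 in edgeR). For fibroblasts, led by Col3a1 and Col1a2, edgeR called 0 of 5 tested markers, DESeq2 0 and limma 0. In edgeR 1 of the 5 had an unadjusted p under 0.05, against 30.2% of all genes tested. The fibroblast sums were 16.8 and 48.1 against 37.9 and 79.1. No listed marker of any of these types was under 3 counts in all libraries. The sort selected CD45+ lineage-negative ST2+ CD127+ cells, a gate meant to leave these cell types out.

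**Figure D1:**
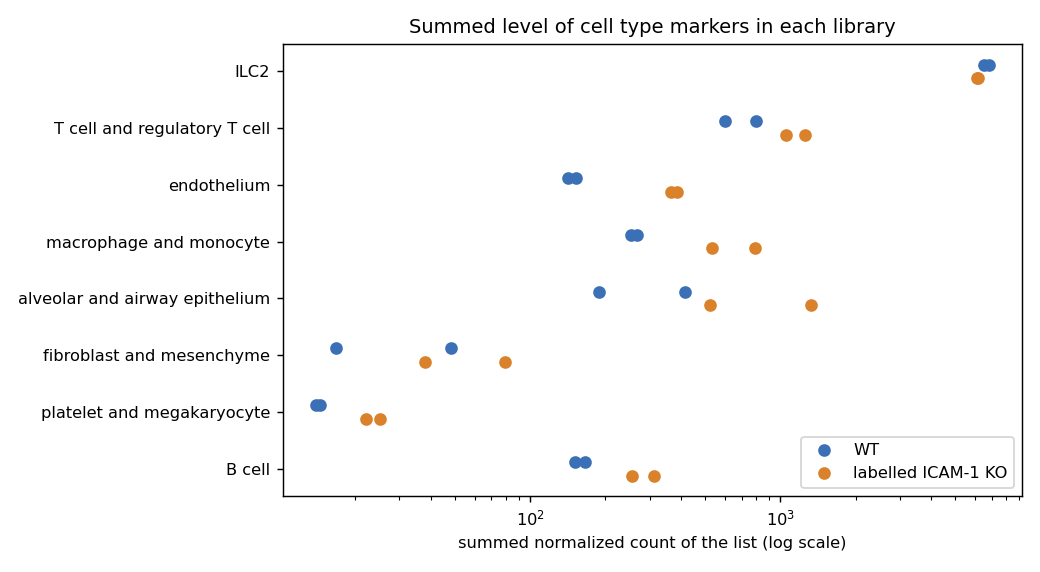
Summed normalized count of each list of cell type markers (x axis, log scale) in each library, with a point per library in blue for WT and in orange for the KO-labelled libraries. The ILC2 sum stayed between 6088 and 6808, whereas the endothelial sum lay at 142 and 152 in WT and at 365 and 385 with the KO label.

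Of the 9 genes, Tgfbr1, Smad7 and Skil were higher in the KO-labelled libraries with an adjusted p under 0.05, and the other 6 did not pass. The changes were modest. Tgfbr1 rose 1.75-fold, Smad7 rose 1.51-fold and Skil rose 1.34-fold, and 0 of the 9 reached the limit of 2-fold that the study used. Over all 11711 genes 13.8% were called in either direction, 8.8% higher and 4.97% lower, and 5.47% were called with at least 2-fold. Against these shares, 3 of 9 genes were called higher and 0 lower. At an unadjusted p under 0.05, edgeR, DESeq2 and limma also found 0 lower. In edgeR 5 of the 9 genes and 30.2% of all genes tested had an unadjusted p under 0.05. The 9 genes were chosen with earlier results of these data known, so the comparison is a description and not a test. The median log2 fold change was 0.38 over the 9 genes and 0.01 over all genes tested. The groups did not overlap for 8 of the 9 genes, but the same held for 59.5% of all genes tested.

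**Figure D2:**
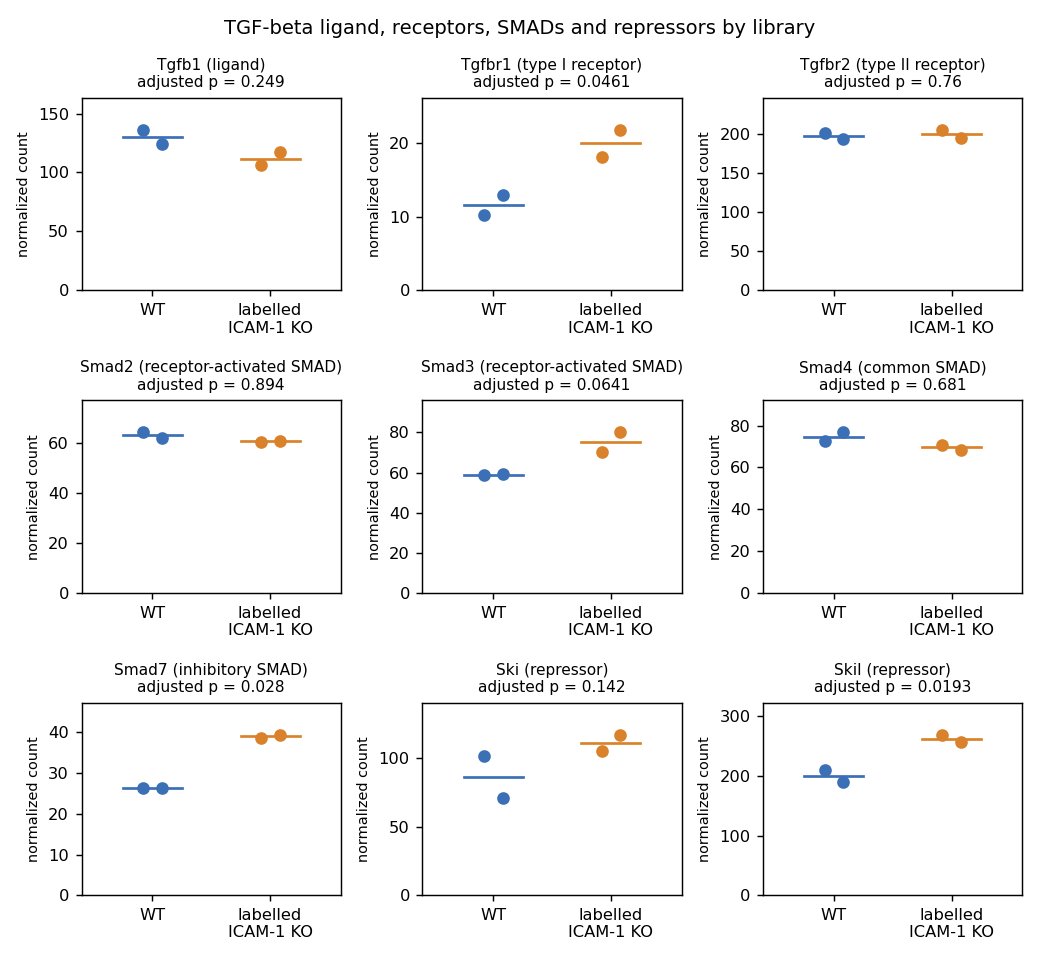
Normalized count of each of the 9 genes (y axis, from 0) in the WT libraries (blue) and the KO-labelled libraries (orange), with a point per library and a line at the mean of each group. Tgfbr1, Smad7 and Skil lay higher with the KO label with adjusted p-values of 0.0461, 0.028 and 0.0193, and only the points of Tgfbr2 overlap between the groups.

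Tgfb1 encodes the ligand and lies on the plus strand of chromosome 7 in mm10, from 25687002 to 25705077. Its normalized count was 136 and 124 in WT and 106 and 117 in the KO-labelled libraries. Both of the latter lay below both WT libraries, by a small margin. The difference of -0.19 on the log2 scale (standard error 0.104, 95% interval -0.43 to 0.04) did not pass the test, with an adjusted p of 0.249 in edgeR. Ligand RNA was abundant in the sorted cells, with a level per kilobase of exon above that of 80.5% of the genes tested. In bulk RNA, fewer cells that express a gene and less RNA per cell cannot be told apart, here and for each gene below.

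Of the receptors, Tgfbr1 was called higher and Tgfbr2 was not called. Tgfbr2, the type II receptor that binds the ligand, lies on chromosome 9 from 116084293 to 116175360 on the minus strand, 95.1 Mb from Icam1 on the same chromosome. Its normalized count was 201 and 193 in WT and 205 and 195 in the KO-labelled libraries, so that the groups overlapped. The log2 fold change was 0.05 (95% interval -0.15 to 0.24, adjusted p = 0.76 in edgeR), which corresponds to a fold between 0.902 and 1.18. Tgfbr1, the type I receptor that passes the signal to the SMADs, lies on chromosome 4 from 47353222 to 47414931 on the plus strand. It was the rarest of the 9 genes, with 309 and 410 counts in WT and 522 and 682 in the KO-labelled libraries. Its normalized count was 10.2 and 13.0 in WT and 18.2 and 21.8 in the KO-labelled libraries, both above both WT libraries. Its log2 fold change of 0.81 (standard error 0.226, 95% interval 0.3 to 1.32, adjusted p = 0.0461 in edgeR) was the largest of the 9. With 1 library left out the log2 fold change stayed above 0, from 0.65 to 0.99, while the adjusted p was 0.172 without WT replicate 1, 0.0762 without WT replicate 2 and 0.195 without ICAM-1 KO replicate 2. Without a filter on low counts the log2 fold change was 0.76, with an adjusted p of 0.115. The difference between the changes of Tgfbr1 and Tgfbr2 was not tested.

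The promoters of the receptors are shown because only one of the pair was called. Both windows are from RefSeq on GRCm38.p6 and run 5′ to 3′ from 250 bases before the start of transcription to 50 bases after it. That of Tgfbr1 is chr4:47352972-47353271 on the plus strand and that of Tgfbr2 is chr9:116175314-116175613 on the minus strand. Capitals mark the SMAD-binding motif AGAC and the GC box GGGCGG, each searched on both strands with any overlap counted.
Tgfbr1: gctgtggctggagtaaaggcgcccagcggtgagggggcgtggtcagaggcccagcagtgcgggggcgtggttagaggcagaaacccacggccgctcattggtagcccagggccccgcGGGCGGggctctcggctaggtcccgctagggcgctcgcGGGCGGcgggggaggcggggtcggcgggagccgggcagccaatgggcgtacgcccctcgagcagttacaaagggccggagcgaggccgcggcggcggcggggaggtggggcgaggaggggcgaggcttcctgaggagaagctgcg
Tgfbr2: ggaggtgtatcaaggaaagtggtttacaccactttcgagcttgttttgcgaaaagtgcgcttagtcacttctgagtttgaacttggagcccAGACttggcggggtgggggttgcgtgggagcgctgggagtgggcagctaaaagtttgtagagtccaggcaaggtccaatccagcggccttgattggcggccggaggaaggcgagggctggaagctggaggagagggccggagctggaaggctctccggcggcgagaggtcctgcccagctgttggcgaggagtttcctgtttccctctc
The Tgfbr1 window had 2 GC boxes and 0 SMAD-binding motifs, with 74.7% of its bases being G or C. The Tgfbr2 window had 0 GC boxes and 1 SMAD-binding motif, at 59% G or C. Of 32851 promoter windows of this length, 35.7% held a GC box and 88% held a SMAD-binding motif, and their median content of G and C was 52.7%. Of the other members with a window, which were not called, Tgfb1 had 6 GC boxes, Smad3 had 2 and Ski had 6. Their SMAD-binding motifs numbered 1, 1 and 0. A match is a run of letters and does not show that a factor binds there. Whether matches go with the changes was not tested.

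Smad2 and Smad3 are the receptor-activated SMADs of TGF-beta. Neither was called. Smad2, on chromosome 18 from 76241580 to 76305731 on the plus strand, had a normalized count of 64.1 and 61.7 in WT and of 60.4 and 60.7 in the KO-labelled libraries. These values lay within a few counts of each other, and the log2 fold change was -0.03 (95% interval -0.28 to 0.22, adjusted p = 0.894 in edgeR). Smad3, on chromosome 9 from 63646767 to 63757994 on the minus strand and 42.6 Mb from Icam1, had 58.6 and 59.1 in WT and 70.2 and 80.0 in the KO-labelled libraries. Here both of the latter lay above both WT libraries. The log2 fold change was 0.38 (standard error 0.118, 95% interval 0.11 to 0.65) with an unadjusted p of 0.0106 and an adjusted p of 0.0641, so that Smad3 missed the threshold. It passed with DESeq2, at an adjusted p of 0.0457, and with none of the 11 other alternatives that set the threshold at the same value.

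Smad4, the common partner that joins the receptor-activated SMADs, lies on chromosome 18 from 73639009 to 73703780 on the minus strand. Its normalized count was 72.6 and 76.7 in WT and 70.6 and 68.5 in the KO-labelled libraries. The groups did not overlap but lay close together, with a log2 fold change of -0.08 (95% interval -0.32 to 0.16, adjusted p = 0.681 in edgeR). As folds, the 95% intervals ran from 0.902 to 1.18 for Tgfbr2, from 0.824 to 1.17 for Smad2 and from 0.803 to 1.12 for Smad4. Those of the called genes had lower bounds of 1.23 for Tgfbr1, 1.21 for Smad7 and 1.16 for Skil.

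Smad7, the inhibitory SMAD that blocks the type I receptor and brings it to degradation, lies on chromosome 18 from 75367529 to 75395935 on the plus strand. Its normalized count was 26.3 in both WT libraries and 38.6 and 39.3 in the KO-labelled libraries, from 796 and 828 counts in WT and 1111 and 1232 with the KO label. The libraries within each group lay far closer to each other than the groups did. The log2 fold change was 0.59 (standard error 0.143, 95% interval 0.27 to 0.92, adjusted p = 0.028 in edgeR). With any 1 library left out the log2 fold change stayed between 0.57 and 0.62, while the adjusted p was 0.0862 without WT replicate 1, 0.0895 without WT replicate 2, 0.0663 without ICAM-1 KO replicate 1 and 0.0956 without ICAM-1 KO replicate 2. Without a filter on low counts it was 0.0873.

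Ski and Skil (also called SnoN) are related nuclear repressors that bind SMAD complexes and recruit corepressors. Skil, on chromosome 3 from 31095058 to 31122577 on the plus strand, was counted often, with a normalized count of 211 and 189.6 in WT and 269 and 257 in the KO-labelled libraries. Both of the latter lay above both WT libraries. Its log2 fold change of 0.42 (standard error 0.0911, 95% interval 0.21 to 0.62, adjusted p = 0.0193 in edgeR) had the smallest adjusted p of the 9 genes. It passed with 3 of the 4 libraries left out in turn, with an adjusted p of 0.105 without WT replicate 2, and it missed without a filter on low counts, at 0.0927. Ski, on chromosome 4 from 155154075 to 155222592 on the minus strand, had 102 and 71.1 in WT and 105 and 117 in the KO-labelled libraries. The WT libraries lay far apart, and the upper one came close to the lower KO-labelled library. The log2 fold change of 0.39 (standard error 0.16, 95% interval 0.02 to 0.75) did not pass, with an adjusted p of 0.142. It ranged from 0.15 without WT replicate 2 to 0.66 without WT replicate 1, where the adjusted p was 0.0368.

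**Figure D3:**
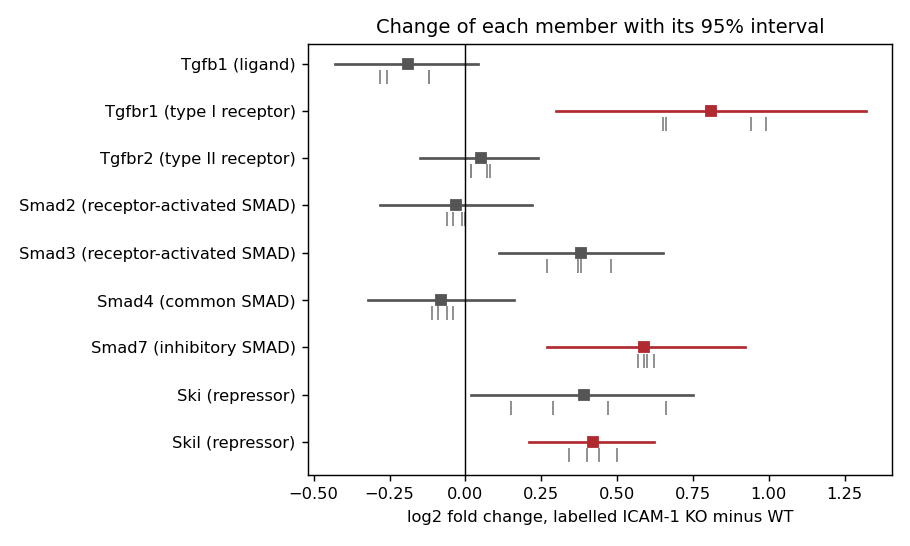
Log2 fold change of each gene between the KO-labelled libraries and WT (x axis), with a square at the estimate, a line over its 95% interval and grey ticks for the estimates with 1 library left out. Red marks the genes with an adjusted p under 0.05, Tgfbr1, Smad7 and Skil, and the ticks run from 0.57 to 0.62 for Smad7 and from 0.15 to 0.66 for Ski.

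Levels of different genes were compared as normalized counts per kilobase of exon. In WT the order was Tgfb1 at 25.8 ± 1.7 (SD, n = 2 libraries), Tgfbr2 at 24.1 ± 0.729, Skil at 20.7 ± 1.58, Smad4 at 20.1 ± 0.768, Ski at 15.5 ± 3.87, Smad3 at 10.6 ± 0.054, Smad2 at 7.16 ± 0.196, Smad7 at 5.81 ± 0.00959 and Tgfbr1 at 1.78 ± 0.301. The neighbours Tgfb1 and Tgfbr2, Skil and Smad4, and Smad4 and Ski differed by no more than the sum of their SDs. In the KO-labelled libraries, Skil came first at 27.1 ± 0.857, ahead of Tgfbr2 at 24.4 ± 0.897 and Tgfb1 at 22.2 ± 1.51, and Smad7 at 8.61 ± 0.107 passed Smad2 at 6.89 ± 0.0292. The type I receptor was thus far below the type II receptor in each library. The level of Tgfbr1 was above that of 23.7% of the genes tested, and that of Tgfbr2 was above that of 80.6%. With the longest transcript in place of all exons, the mean over the 4 libraries moved from 24.0 to 47.0 for Tgfb1. It moved from 23.9 to 34.5 for Skil, so the places of these genes depend on the length used. Smad2 ends at 76305731 in the deposited counts, while the GENCODE M21 gene used for its exon length ends at 76310963. The ends agree for the other members. The exon length of Smad2 may thus include bases that were not counted, and its level per kilobase may be too low. Its places relative to Smad3 and Smad7 are therefore uncertain.

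Ratios within a library do not depend on how libraries are scaled to each other. The level of Tgfbr1 relative to Tgfbr2 was 0.0637 and 0.0846 in WT and 0.111 and 0.14 in the KO-labelled libraries. That of Smad3 relative to Smad2 was 1.45 and 1.52 in WT and 1.84 and 2.09 in the KO-labelled libraries. Both ratios were higher in each KO-labelled library than in any of WT. Their size depends on the exon lengths used, in particular that of Smad2, while their order across libraries does not. Skil relative to Ski was 1.19 and 1.53 against 1.47 and 1.26, which overlap. The sum of Smad7, Ski and Skil relative to the sum of Smad2, Smad3 and Smad4 was 1.22 and 0.995 in WT and 1.43 and 1.41 in the KO-labelled libraries. These ratios are a description, and their differences were not tested. An exact permutation test of 2 against 2 libraries could not give a two-sided p below 0.333.

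The other genes of the pathway were taken from 8 lists with 121 genes in all, of which 96 were tested. Of these, 26 were higher and 3 were lower in the KO-labelled libraries with an adjusted p under 0.05, that is 30.2% against 13.8% of all genes. The lists were chosen with earlier results of these data known, so these shares are a description and cannot show enrichment. Their median log2 fold change was 0.18. Most of the higher genes stood in 3 lists, with 9 in that of latency and activation, 5 in that of other receptors and 8 in that of genes commonly induced by TGF-beta, and Tgif1 and Ldlrad4 stood in 2 lists each. The summed levels of endothelial, macrophage and T cell markers rose in the same libraries, as given above, and the part of those cell types in these counts was not tested.

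**Figure D4:**
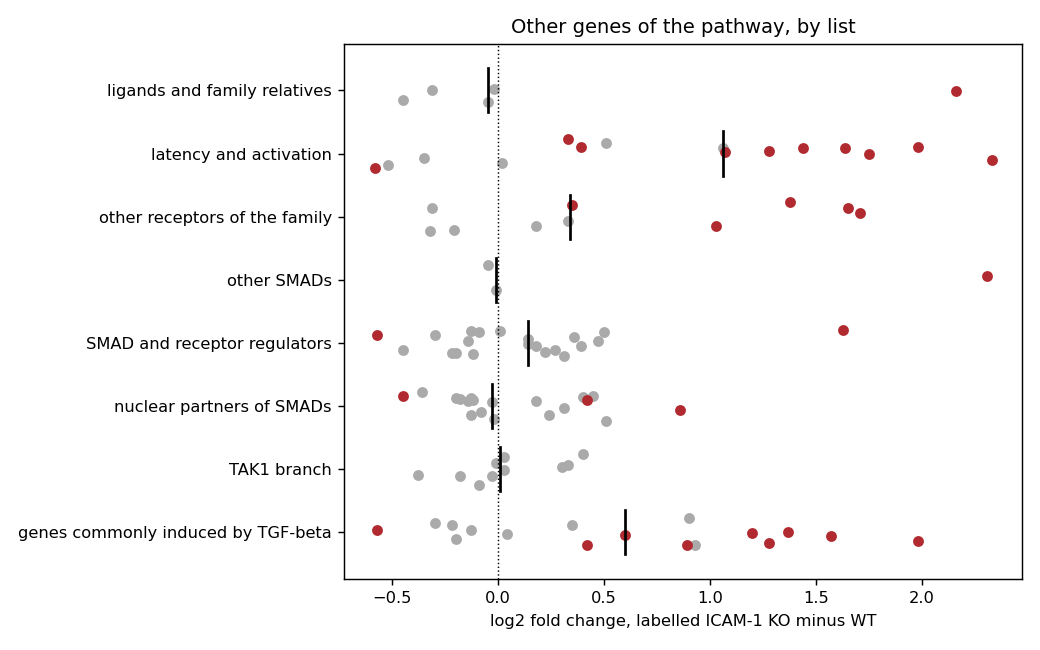
Log2 fold change between the KO-labelled libraries and WT (x axis) of the tested genes of each pathway list (y axis), with a point per gene, red where the adjusted p was under 0.05, and a black bar at the median of the list. The medians were 1.06 for latency and activation, 0.6 for genes commonly induced by TGF-beta and 0.34 for other receptors, and between -0.05 and 0.14 for the remaining lists.

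Release and activation of latent TGF-beta had the most called genes, 9 higher and 1 lower of 15 tested, with a median log2 fold change of 1.06. That is 66.7% called, against 13.8% of all genes tested. Thbs1, which encodes thrombospondin 1, an activator of latent TGF-beta, had a normalized count of 42.1 and 37.7 in WT and of 138 and 106 in the KO-labelled libraries (log2 fold change 1.64, standard error 0.144, adjusted p = 0.000496 in edgeR). Lrrc32, which encodes GARP, an anchor of latent TGF-beta on regulatory T cells and platelets, went from 7.79 and 9.63 to 33.9 and 23.7 (log2 fold change 1.75, adjusted p = 0.00339). Ltbp4, a latent TGF-beta binding protein of the matrix, was rare and went from 1.19 and 1.58 to 6.46 and 7.01 (log2 fold change 2.33, adjusted p = 0.00851). Furin, the protease that cuts the TGF-beta precursor and the most abundant gene of the list, was the one that fell. It had 1151 and 1022 in WT and 698 and 729 in the KO-labelled libraries (log2 fold change -0.58, standard error 0.0903, adjusted p = 0.00538). Foxp3, a regulatory T cell marker, went from 42.4 and 53.9 to 157 and 181 in the same libraries, and its part in the change of Lrrc32 was not tested.

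Among the other receptors of the family, 5 of 10 tested genes were higher and 0 were lower (also 0 at an unadjusted p under 0.05, and 0 with DESeq2 and limma), with a median log2 fold change of 0.34. That is 50% called, against 13.8% of all genes tested. Acvrl1, an endothelial type I receptor also called ALK1, went from 18.1 and 17.2 to 52.7 and 55.7 normalized counts (log2 fold change 1.65, adjusted p = 0.000496 in edgeR). Its coreceptor Eng, endoglin, went from 17.1 and 17.8 to 40.7 and 48.1 (log2 fold change 1.38, adjusted p = 0.00159). Both are known from endothelium, whose 10 markers had a median log2 fold change of 1.48. Bmpr2, the type II receptor for bone morphogenetic proteins, had a log2 fold change of 1.03 (adjusted p = 0.0185, and 0.0866 without WT replicate 2). Tgfbr3, or betaglycan, a coreceptor that presents the ligand, was rare at 1.98 and 1.49 in WT and 6.94 and 4.17 with the KO label. Its adjusted p of 0.0378 became 0.0965 without WT replicate 1, 0.153 without WT replicate 2 and 0.156 without ICAM-1 KO replicate 1. Nrp1, a coreceptor that is also found on regulatory T cells and the most abundant of the list, had a log2 fold change of 0.35 (adjusted p = 0.0471) and missed the threshold with each library left out, at 0.0592 to 0.199.

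Of the family relatives of Tgfb1, 20% of the tested genes were called, and of the other SMADs 33.3%, which is 1 gene in each list, against 13.8% of all genes tested. Of 15 relatives of Tgfb1, 5 were tested, and Bmp6 was the 1 that was called, going from 5.85 and 4.5 to 22.2 and 22.8 normalized counts (log2 fold change 2.16, adjusted p = 0.00143 in edgeR). The most abundant, Bmp7, had 83.9 and 55.1 in WT and 61.6 and 69.5 in the KO-labelled libraries (log2 fold change -0.05, adjusted p = 0.875). Smad6, the inhibitory SMAD of that branch, went from 5.74 and 2.79 to 22.4 and 18.6 (log2 fold change 2.31, adjusted p = 0.00323). Smad1, which that branch activates, had 23.5 and 18.3 against 20.4 and 20.4 (log2 fold change -0.01, adjusted p = 0.986).

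Of regulators of the SMADs and receptors 9.52% were called, and of their nuclear partners 15.8%, against 13.8% of all genes tested. Of 21 tested regulators of SMADs and receptors, 1 was higher and 1 was lower, with a median log2 fold change of 0.14. Dab2, an adaptor of receptor endocytosis, went from 4.13 and 4.75 to 12.8 and 14.1 normalized counts (log2 fold change 1.63, adjusted p = 0.00766 in edgeR). Ldlrad4, an inhibitor that keeps the SMADs from the receptor, went from 74.4 and 68.3 to 48.0 and 46.2 (log2 fold change -0.57, adjusted p = 0.0151, and 0.0734 without WT replicate 1). The most abundant, Fkbp1a, which binds the type I receptor, had a log2 fold change of -0.22 (adjusted p = 0.149). Of 19 nuclear partners, 2 were higher and 1 was lower, with a median of -0.03. Tgif2 and Tgif1, corepressors of SMADs, changed by 0.86 and 0.42 on the log2 scale (adjusted p of 0.0337 and 0.0398), and Myc, which TGF-beta is known to repress, had one of -0.45 (adjusted p = 0.0417). With 1 library left out these missed the threshold in 4 cases of 4 for Tgif2, at up to 0.113, and in 3 of 4 for Tgif1 and Myc, at up to 0.228 and 0.185. Fos, the most abundant partner, had 497 and 308 in WT and 323 and 367 with the KO label (adjusted p = 0.525). Of the 10 genes of the TAK1 branch, which carries TGF-beta signals to kinases, edgeR called 0, as did DESeq2 and limma. In edgeR 3 of the 10 had an unadjusted p under 0.05, a share near the 30.2% of all genes tested. The most abundant gene of that branch, Map2k3, had a log2 fold change of -0.03 (adjusted p = 0.846 in edgeR).

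Of 17 tested genes listed here as commonly induced by TGF-beta, 8 were higher and 1 was lower, with a median log2 fold change of 0.6. That is 52.9% called, against 13.8% of all genes tested. Itga1, an integrin of resident lymphocytes that is also found on stromal cells, went from 5.81 and 3.78 to 15.6 and 21 normalized counts (log2 fold change 1.98, standard error 0.303, adjusted p = 0.00494 in edgeR). Nt5e, the ectoenzyme CD73, went from 74.2 and 79.0 to 119 and 108 (log2 fold change 0.6, adjusted p = 0.00851, and 0.0534 without a filter on low counts). Tgfbi, a matrix protein named for its induction by TGF-beta that macrophages also make, went from 11.4 and 14.4 to 24.7 and 33.2 (log2 fold change 1.2, adjusted p = 0.0111, and 0.065 without WT replicate 1). Id3, an inhibitor of DNA binding, went from 12.6 and 12.1 to 29.2 and 33.4 (adjusted p = 0.00298). The most abundant of the list, Junb, had 2121 and 1725 in WT and 1502 and 1783 in the KO-labelled libraries and did not pass (log2 fold change -0.2, adjusted p = 0.314), and Ldlrad4 was the gene that fell. In the same libraries the summed level of macrophage and monocyte markers was 2.54-fold higher and that of endothelial markers 2.55-fold higher, and their part in these changes was not tested.

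The same holds for the 3 called members. The normalized count of Tgfbr1 was higher by 8.33, that of Smad7 by 12.7 and that of Skil by 62.4 in the mean of the KO-labelled libraries, while the sums of the endothelial, macrophage and T cell markers were higher by 228, 402 and 456. A sum over a list is not on the scale of a single gene. Summed levels were also higher for lung epithelium (3.05-fold), B cells (1.79-fold), platelets (1.66-fold) and fibroblasts (1.8-fold, with overlapping libraries). Endothelial cells, macrophages and T cells express members of the pathway too, and the part of other cells in the changes of Tgfbr1, Smad7 and Skil was not tested.

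The genes whose course over the 4 libraries was most like that of Tgfb1 were Cox11, Pdcl3 and Ssbp4 among 8910 genes averaging 10 normalized counts or more. Their log2 normalized counts, each centred on its own mean, differed from that of Tgfb1 by a root mean square of 0.00281, 0.00492 and 0.0115. Those most like Tgfbr2 were Hsd17b4, Tollip and Eid1, at 0.00198, 0.0113 and 0.0136. With 4 libraries a close match can arise by the number of genes searched, and nothing is said of shared control.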

How the data were processed

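RNA was sequenced from FACS-sorted lung ILC2s in 4 libraries, grouped by the genotype labels. Per the paper's methods the authors used STAR on mm10, then Partek with the GENCODE M20 annotation to give expected counts. The deposited expected counts are not normalized. The deposited normalized signal was made by upper quartile scaling, and each value equals the count plus 1 times a factor per library. Whether counting used strand is not given in the sources used here. No annotated gene shared exons with a member, and positions come from the deposited table, its ends moved by 1 base.

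Expected counts were rounded and tested with the edgeR 4.0.16 quasi-likelihood test (glmQLFit in its newer form, then glmQLFTest, on upper quartile factors, R 4.3.3), in place of the gene-specific analysis test of Partek, which was not run here. Genes needed, as in the study, 1 normalized count on average and 10 in sum. P-values were adjusted by Benjamini and Hochberg over all 11711 genes. Standard errors come from the log2 fold change and its F statistic. On counts drawn with a log2 change of 1 in 200 of 11711 genes the test recovered 64.5%, and with a change of 0.5 it recovered 13.5%, and false calls were 5.8% and 0% of calls. The draw changed fewer genes than the 13.8% called in the data. It also gave genes of like abundance the same dispersion, so these shares do not carry over to the data. Exon lengths came from GENCODE M21, and promoters were present for 5 of the 9 members. Windows were not used here for Smad2, Smad4, Smad7 and Skil.

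The members and lists were chosen with earlier results of these data known. Named were all members, Icam1, in each list up to 4 called genes with the smallest adjusted p and its most abundant gene, the ILC2 markers, the 2 most abundant markers of each other cell type, and the 3 genes most like Tgfb1 and Tgfbr2. Foxp3 was named after its value was seen. Alternatives were TMM factors, DESeq2 1.42.0, limma 3.58.1, other filters, the older quasi-likelihood form, the replicate number as a block, a threshold of 0.1, the longest transcript, and each library left out.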

Additional observations from a re-analysis of the deposited data

How the results depend on the processing

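All 9 members kept their direction under the 12 refits. For Tgfbr2 and Smad2 the sign carries no weight, since the log2 fold change came to 0.00 without a filter on low counts and to -0.00 without WT replicate 1. Of the 35 genes refitted, the members and the named pathway genes, 0 to 12 moved across the threshold in a given refit on all 4 libraries. With the filter, DESeq2 called 4 members and 2191 genes in all, and limma called 3 members and 1724 genes in all. Without a filter on low counts edgeR tested 22158 genes. It called 0 members against 3, 12 pathway genes against 29 and 535 genes in all against 1612. There 4 members had an unadjusted p under 0.05 in edgeR, against 30.2% of all genes tested in the main fit. The named pathway genes lost there were Bmpr2, Ldlrad4, Myc, Nrp1, Nt5e, Tgfbi, Tgfbr3, Tgif1 and Tgif2. With edgeR's filterByExpr and with the older form of the test, Tgfbr1 was lost, at adjusted p-values of 0.0611 and 0.0536. At a threshold of 0.1 the members called numbered 4, with Smad3, and the share of all genes at that threshold is not given here.

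With 1 library left out, where the lone library of a group is assumed to vary like the others, between 0 and 2 members, 15 and 25 pathway genes and 681 and 1305 genes were called. Without WT replicate 2 the log2 fold change was 0.99 for Tgfbr1, 0.59 for Smad7 and 0.34 for Skil. Uncalled genes near 0 changed sign, with log2 fold changes from -0.33 to 0.28 for Bmp7, -0.50 to 0.19 for Fos, -0.12 to 0.05 for Map2k3 and -0.18 to 0.18 for Smad1.

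Deviations of libraries with the same replicate number correlated at -0.0582, so no shift shared by number was seen. With 2 libraries per group this is a single correlation, and it cannot show whether the samples were paired. With the replicate block 3 members, 29 pathway genes and 1715 genes were called.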
